A study of Mus musculus with 8 samples.

Results

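The homeobox, Sox, forkhead, T-box, Gata and Zic genes encode transcription factors that lay down position and cell identity in the embryo, and 73 genes with symbols of these families were found among the 13575 genes measured in cultured mouse retinal astrocytes (AC). The rule uses the gene symbol and no measured value, although it was set with earlier results of these data known. Of the 73, 71 are protein-coding and 2 are non-coding transcripts of the same loci, Dlx1as and Sox2ot, and together they lie on 17 chromosomes. Another 5 symbols of the same pattern were set aside by the rule, namely Pax2, Sox9 and the opposite-strand transcripts Foxd2os, Six3os1 and Vax2os.

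A homeobox encodes a DNA-binding domain that prefers sequences around a TAAT core. Hox and Cdx proteins set position along the body axis together with Meis and Pbx cofactors, while proteins such as Pax6, Six3, Vax2, Lhx2, Otx1 and the Irx family pattern the head and the eye and Msx, Dlx and Prrx proteins act in limb, face and neural crest mesenchyme. In the retina such factors set apart the dorsal and ventral sides of the early eye cup, with Tbx2 and Tbx3 on the dorsal side and Vax2 on the ventral side.

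RNA was sequenced from AC of 4-week-old mice, as 4 libraries labelled Cyp1b1-/- and 4 Cyp1b1+/+ (wild-type) libraries. Cyp1b1 is a cytochrome P450 enzyme of the eye and its vessels. In both groups, by the study's account, the retinas of 1 litter of mixed gender were pooled. Endothelial cells were removed with CD31 beads, and the cells were grown with serum, endothelial growth supplement and interferon-γ. It is not stated whether the 4 libraries of a label came from separate cultures, so p-values speak only of the spread among these libraries and that spread may be technical. Strain was entered as C57BL/6 for Cyp1b1+/+ and differently among the libraries labelled Cyp1b1-/-, and these entries were not used.

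Cyp1b1 itself had normalized values of 1296, 1276, 1288 and 1368 in the libraries labelled Cyp1b1-/-, against 749, 829, 856 and 882 in the Cyp1b1+/+ libraries, which is against the label. Whether the counted reads cover the deleted part of the gene was not tested. Xist, the RNA of the inactive X chromosome, was at 34 to 46 in the libraries labelled Cyp1b1-/- and at 21084 to 26863 in Cyp1b1+/+. Ddx3y of the Y chromosome was at 1230 to 1324 in the libraries labelled Cyp1b1-/- and at 0 to 1 in Cyp1b1+/+. These values divide by label although pools of mixed gender are described, so genotype label and the sex of the cells cannot be told apart here. Of 12 astrocyte markers 6 were measured, among them Vim, Slc1a3 and Pax2. Gfap, S100b and Aqp4 were not among the genes measured, from which the authors had removed those of low abundance. Vim was at 99216 to 128380, Slc1a3 at 22 to 32 and Pax2 at 0 to 1 in the libraries labelled Cyp1b1-/-, against 74812 to 81133, 16 to 32 and 28 to 39 for the same genes in Cyp1b1+/+. Replicate 2 labelled Cyp1b1-/- stood apart. The summed value of its 4 measured fibroblast markers was 174580, against 3094 to 3516 in the other 3 libraries of that label and 3851 to 4990 in Cyp1b1+/+. The excess lay in the collagen genes Col1a1 (122121), Col1a2 (44444) and Col3a1 (6407). Fbln1 was at 1608 in replicate 2, against 1188 to 1370 in the other 3. Other marker lists also differed with the label. Summed values in the libraries labelled Cyp1b1-/- were 3442 to 3673 for 3 Müller glia markers, 433 to 534 for 4 markers of oligodendrocytes and Schwann cells and 39 to 52 for 2 microglia markers, against 6345 to 6906, 783 to 891 and 75 to 96 for the same lists in Cyp1b1+/+. The 1 measured epithelial marker, Dsp, was at 1036 in replicate 2 labelled Cyp1b1-/-, at 30 to 34 in the other 3 libraries of that label and at 1 to 4 in Cyp1b1+/+. The part of these differences in the results below was not tested. In these bulk cultures, fewer cells of a type and less RNA per cell cannot be told apart.

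Of the 73 genes, 39 were higher in the libraries labelled Cyp1b1-/- than in Cyp1b1+/+ at an adjusted p under 0.05 and 17 were lower, while 17 did not pass the test. Higher genes made up 53.4% of the 73, beside 26.8% of all genes tested, and lower genes made up 23.3%, beside 26.9%. A difference over 2-fold was seen for 17 higher genes (23.3%, beside 2.60% of all genes) and for 6 lower genes (8.22%, beside 4.52%). The groups did not overlap for 37 higher genes (50.7%, beside 24.8%) and for 15 lower genes (20.5%, beside 24.4%). The median log2 fold change was 0.21, within a range of -2.46 to 4.80, and the median of all genes was 0.00. The plot of the fold changes by family shows the higher genes spread over Cdx, Irx, Tbx, Nkx, Gata and Fox, and the largest decreases in Pax and Tbx.

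**Figure D1:**
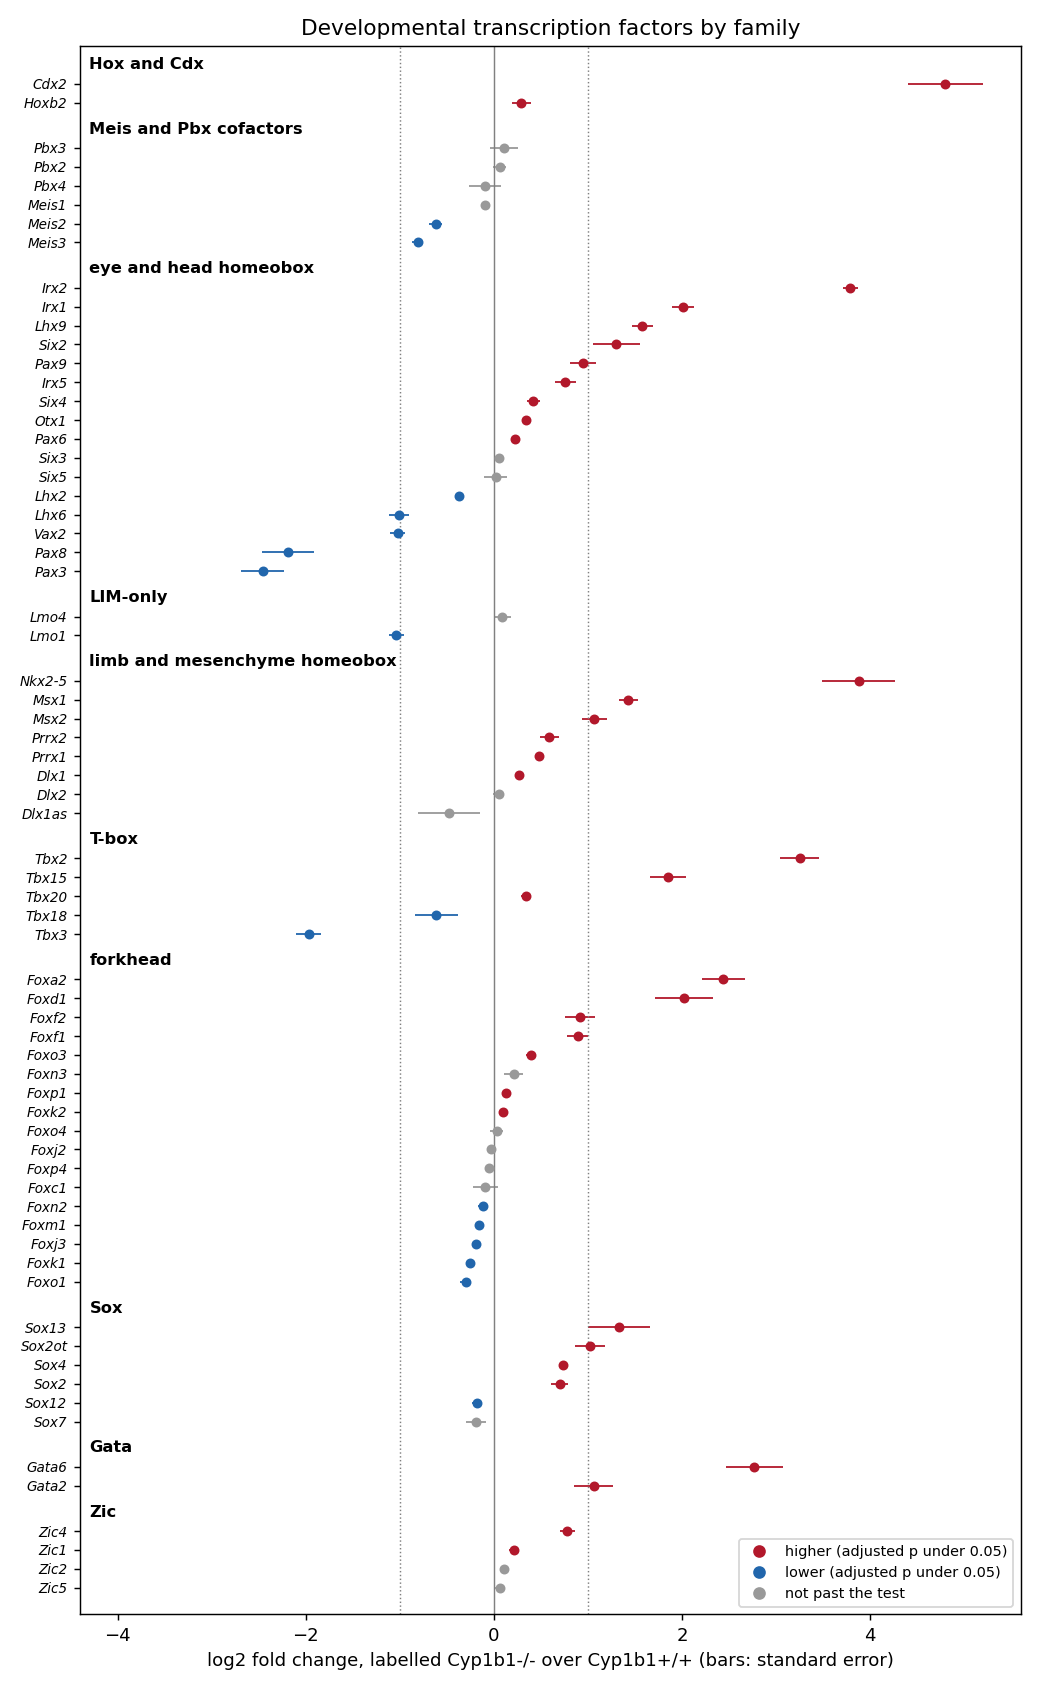
Log2 fold change of 68 of the 73 genes, libraries labelled Cyp1b1-/- over Cyp1b1+/+, grouped by family, with bars for the standard error of the fit. Cdx2, Nkx2-5, Irx2 and Tbx2 lie above 3 and Pax3 and Pax8 lie below -2.

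The large increases were concentrated among genes of low level. Of the 17 genes higher by more than 2-fold, 12 had a mean normalized value under 50 in Cyp1b1+/+. Among the 15 of the 73 genes whose mean over all libraries was under 50, 12 were higher, 11 of them by more than 2-fold, beside 13.3% and 6.39% of all genes at that level. In the same range 2 of the 15 were lower, both by more than 2-fold, beside 24.5% and 15.8% of all genes. The authors had removed genes of low abundance by their read counts. Genes such as Cdx2, Nkx2-5, Foxd1 and Sox13, with means under 10 in Cyp1b1+/+, may have entered the table only through the other group. So may Pax8, with a mean under 10 in the libraries labelled Cyp1b1-/-. Cdx2 had 0, 0, 0 and 1 in Cyp1b1+/+, while Nkx2-5, Foxd1, Sox13 and Pax8 were above 0 in every library. Which of them depended on the other group could not be checked without raw counts. The counts above are therefore a description. With genes of a mean under 50 left out of the fit, 6 of the 58 genes of these families left in it were higher by more than 2-fold. In the main fit the shares of all genes were 5.29% (means of 50 to 200), 1.49% (200 to 1000) and 0.709% (1000 upward).

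The sequences before the transcription start are shown for 5 of the genes that changed by more than 2-fold, as the stretch on which factors of these same families could be looked for. RefSeq windows of 250 bases before the start, on GRCm38.p6, matched 48 of the 73 genes, and those of Irx1, Tbx2, Tbx3, Vax2 and Pax3 are not shown. Both strands were searched for the homeobox core TAATTA, for the T-box letters GGTGTGA, for the forkhead letters TGTTTAC, for ACAATGG as bound by Sox proteins, for AGATAA as bound by Gata proteins and for TGACAG as bound by Meis proteins, and capitals mark each match on either strand. Each window reads in the direction of transcription. Of the 250 bases, 21 for Cdx2, 13 for Lhx9 and 20 for Six2 lie in exons of the same gene in GENCODE M21. The Lhx9 window lies inside the span of the gene (chr1:138825186-138848577). The Irx2 window (chr13:72628570-72628819, plus strand) held none of the 6 motifs, the Cdx2 window (chr5:147307250-147307499, minus strand) the forkhead motif on the opposite strand, the Lhx9 window (chr1:138842445-138842694, minus strand) a Meis motif, the Six2 window (chr17:85688255-85688504, minus strand) 2 Meis motifs and 1 Gata motif, and the Lmo1 window (chr7:109175208-109175457, minus strand) the homeobox core.
Irx2: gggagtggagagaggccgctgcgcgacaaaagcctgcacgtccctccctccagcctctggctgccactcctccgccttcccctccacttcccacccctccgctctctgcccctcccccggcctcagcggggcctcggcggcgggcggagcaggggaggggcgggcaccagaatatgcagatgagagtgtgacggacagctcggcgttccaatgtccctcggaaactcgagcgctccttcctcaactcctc
Cdx2: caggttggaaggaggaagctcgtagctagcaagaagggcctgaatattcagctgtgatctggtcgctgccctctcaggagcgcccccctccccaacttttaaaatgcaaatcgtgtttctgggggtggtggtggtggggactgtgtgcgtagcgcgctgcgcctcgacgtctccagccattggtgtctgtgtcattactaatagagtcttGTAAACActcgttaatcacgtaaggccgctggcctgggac
Lhx9: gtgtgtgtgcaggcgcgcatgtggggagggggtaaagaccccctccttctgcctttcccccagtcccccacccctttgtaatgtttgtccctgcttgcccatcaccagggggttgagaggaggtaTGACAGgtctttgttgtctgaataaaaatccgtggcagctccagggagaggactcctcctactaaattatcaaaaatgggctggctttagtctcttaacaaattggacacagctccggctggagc
Six2: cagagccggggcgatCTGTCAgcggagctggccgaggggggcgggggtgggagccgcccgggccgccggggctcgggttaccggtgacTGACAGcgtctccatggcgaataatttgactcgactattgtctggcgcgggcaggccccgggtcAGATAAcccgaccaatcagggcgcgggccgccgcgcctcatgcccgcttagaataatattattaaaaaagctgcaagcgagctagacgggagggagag
Lmo1: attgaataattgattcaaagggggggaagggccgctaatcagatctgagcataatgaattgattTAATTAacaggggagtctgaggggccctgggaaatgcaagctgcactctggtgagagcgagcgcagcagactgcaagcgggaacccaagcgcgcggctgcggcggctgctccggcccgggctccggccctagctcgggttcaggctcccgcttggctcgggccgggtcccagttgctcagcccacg

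The Meis motif was present in windows of 9 of the 26 higher genes that had one, of 2 of the 10 lower genes and of 2 of the 12 genes that did not pass, beside 18.0% of the 27025 genes with a window. The homeobox core was present for 3 of the 26 higher genes (Foxp1, Msx2 and Prrx1) and for 1 of the 10 lower genes (Lmo1), beside 5.65% of all genes. A T-box motif was found for none of the 48, beside 3.84% of all genes. These are matches of letters in short windows and not sites of binding.

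Cdx2 and Hoxb2 were both higher in the libraries labelled Cyp1b1-/-. Cdx2, a factor of the posterior embryo and the intestine, had normalized values of 32, 29, 36 and 32 in the libraries labelled Cyp1b1-/-, against 0, 0, 0 and 1 in the Cyp1b1+/+ libraries. Its log2 fold change was 4.80 (SE 0.40, adjusted p = 4.85e-06), a value that depends on the pseudocount, since it became 5.63 with 0.5 and 7.47 with 0.1. Cdx2 may have entered the table only through the libraries labelled Cyp1b1-/-, so its p-value is only a description. Hoxb2, the hindbrain gene of the Hox B cluster, was higher by a log2 fold change of 0.29 (adjusted p = 0.0279), and its call was lost when any of replicates 2 and 4 labelled Cyp1b1-/- or 2 and 3 of Cyp1b1+/+ was left out (adjusted p = 0.0599 to 0.0733). Hoxb2 shares 27.3% of its exon bases with the opposite-strand Hoxb3os, and reads of such pairs cannot be told apart with a library kit that does not mark strand. The groups did not overlap for either gene.

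The Meis and Pbx cofactors, which bind DNA beside Hox proteins, differed in direction, with 1 higher, 2 lower and 4 not passing. Among all genes 26.8% were higher and 26.9% lower. Meis3 had 173, 166, 168 and 156 in the libraries labelled Cyp1b1-/-, against 289, 293, 287 and 295 in Cyp1b1+/+ (log2 fold change -0.81, SE 0.06, adjusted p = 1.55e-06). Meis2 had 740, 954, 761 and 799 in the libraries labelled Cyp1b1-/-, against 1221, 1321, 1212 and 1214 in Cyp1b1+/+ (log2 fold change -0.62). The 2 groups did not overlap for either gene, although replicate 2 was the highest of its label for Meis2. Meis1 had 776, 915, 787 and 802 in the libraries labelled Cyp1b1-/-, against 846, 880, 876 and 885 in Cyp1b1+/+, and did not pass the test with all libraries (log2 fold change -0.09, adjusted p = 0.175). Without replicate 2 labelled Cyp1b1-/- it was lower (log2 fold change -0.14, adjusted p = 0.00786). Pbx2, Pbx3 and Pbx4 had log2 fold changes of 0.06, 0.11 and -0.09 and did not pass.

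Of the 17 eye and head homeobox genes 9 were higher, 6 were lower and 2 did not pass, beside 26.8% higher and 26.9% lower of all genes. All 3 Irx genes, homologs of the fly Iroquois genes, were higher. Irx2 (chr13:72628820-72634198, plus strand) had normalized values of 949, 932, 968 and 895 in the libraries labelled Cyp1b1-/-, against 56, 69, 69 and 74 in the Cyp1b1+/+ libraries. This log2 fold change of 3.79 (SE 0.08, adjusted p = 5.5e-10) had the smallest p of the 73 genes. Irx1 (chr13:71957921-71963723, minus strand), 665.1 kb from Irx2 and in the same Iroquois cluster, had 529, 466, 495 and 477 in the libraries labelled Cyp1b1-/-, against 94, 146, 124 and 127 in Cyp1b1+/+ (log2 fold change 2.01, SE 0.12, adjusted p = 4.21e-07). Irx5, of the other Iroquois cluster on chromosome 8, had 247, 264, 205 and 241 in the libraries labelled Cyp1b1-/-, against 117, 149, 159 and 141 in Cyp1b1+/+ (log2 fold change 0.76). The groups did not overlap for any of the 3, and the spread within each group was small beside the distance between the groups for Irx1 and Irx2.

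**Figure D2:**
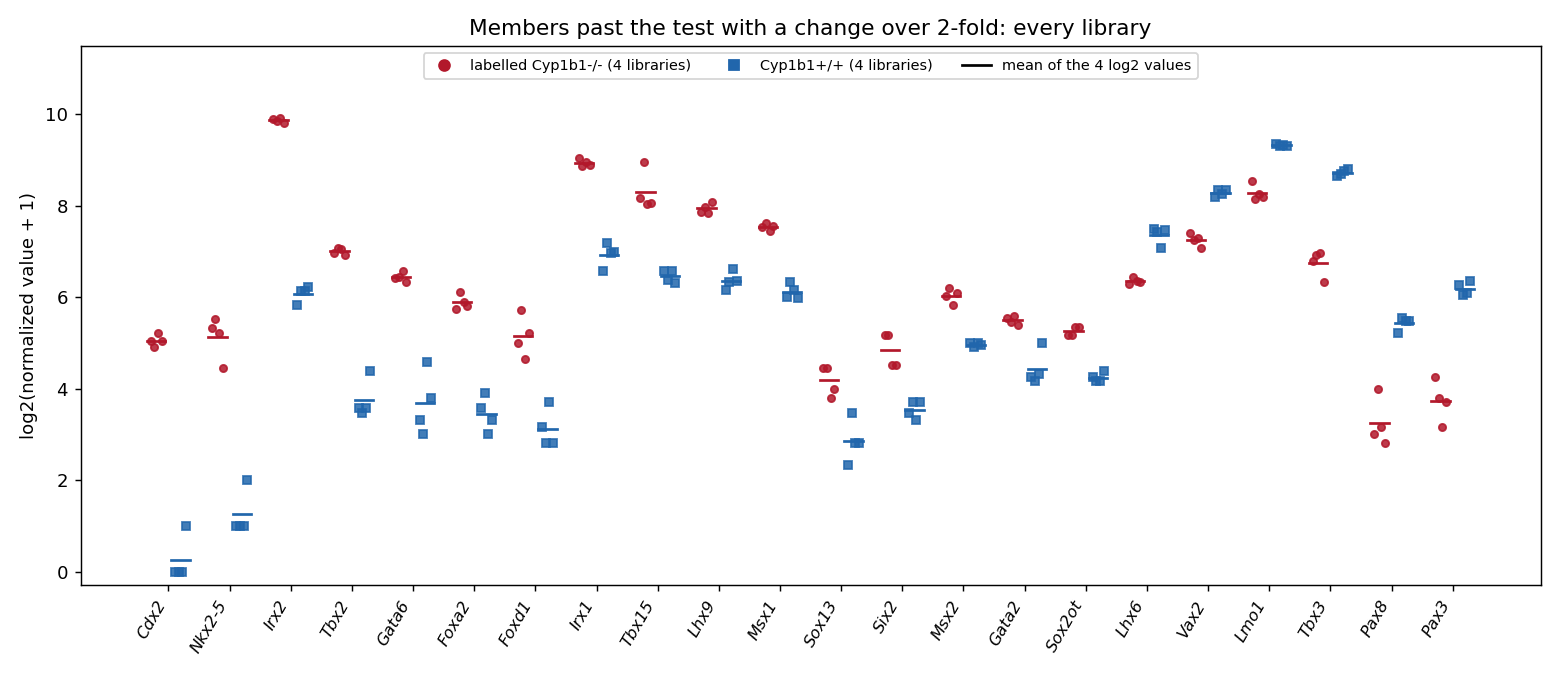
Normalized value plus 1 (log axis) in each library of 22 genes that passed the test with a difference over 2-fold, with the libraries labelled Cyp1b1-/- beside the Cyp1b1+/+ libraries. The groups do not overlap for any gene, and Irx2 lies at 895 to 968 in the libraries labelled Cyp1b1-/- against 56 to 74 in Cyp1b1+/+.

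The Lhx genes, LIM-homeobox factors of the forebrain and eye, differed in direction. Lhx9 had 233, 252, 229 and 270 in the libraries labelled Cyp1b1-/-, against 70, 80, 97 and 81 in Cyp1b1+/+ (log2 fold change 1.58, SE 0.11, adjusted p = 1.05e-06). Lhx6, a factor of cortical interneurons and of the jaw mesenchyme, had 77, 86, 81 and 80 in the libraries labelled Cyp1b1-/-, against 180, 171, 135 and 176 in Cyp1b1+/+ (log2 fold change -1.01, SE 0.11). Lhx2, which is needed for the optic vesicle to form, had 806, 796, 781 and 800 in the libraries labelled Cyp1b1-/-, against 1034, 1032, 1037 and 1022 in Cyp1b1+/+ (log2 fold change -0.37, SE 0.03, adjusted p = 4.37e-06). The difference for Lhx2 was small, but the spread within each group was smaller still and the groups did not overlap. Lmo1, a LIM-only protein that binds the LIM cofactor Ldb1 and has no homeodomain, had 372, 282, 308 and 291 in the libraries labelled Cyp1b1-/-, against 650, 637, 640 and 637 in Cyp1b1+/+ (log2 fold change -1.04, SE 0.08, adjusted p = 2.43e-06). Lmo4 did not pass, at a log2 fold change of 0.09 (adjusted p = 0.434).

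The Pax genes were split as well. Pax3, a factor of neural crest and muscle precursors, had 18, 13, 8 and 12 in the libraries labelled Cyp1b1-/-, against 76, 65, 67 and 81 in Cyp1b1+/+. Its log2 fold change of -2.46 (SE 0.23, adjusted p = 1e-05) was the lowest of the 73. Pax8, a factor of thyroid and kidney that is close in sequence to Pax2, had 7, 15, 8 and 6 in the libraries labelled Cyp1b1-/-, against 36, 46, 44 and 44 in Cyp1b1+/+ (log2 fold change -2.19, SE 0.28). Pax9 had 80, 74, 84 and 74 in the libraries labelled Cyp1b1-/-, against 45, 38, 45 and 33 in Cyp1b1+/+ (log2 fold change 0.95). Pax6, a factor needed for eye development across animals, was higher by a log2 fold change of 0.22 (adjusted p = 0.000391), with means of 1481 ± 44.6 in the libraries labelled Cyp1b1-/- and 1274 ± 28.2 in Cyp1b1+/+ (SD, n = 4 each). None of the 4 overlapped between the groups. Pax8 shares 6.1% of its exon bases with the opposite-strand Gm13415 and Pax9 3.7% with Slc25a21.

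Vax2, a ventral factor of the eye cup (chr6:83711264-83738313), had normalized values of 170, 151, 156 and 135 in the libraries labelled Cyp1b1-/-, against 292, 324, 304 and 326 in the Cyp1b1+/+ libraries (log2 fold change -1.02, SE 0.08, adjusted p = 2.85e-06). Otx1, a head factor, was higher by 0.34 on the log2 scale. Six2, a kidney and head mesenchyme factor whose family partners with Eya proteins, had 35, 35, 22 and 22 in the libraries labelled Cyp1b1-/-, against 10, 12, 9 and 12 in Cyp1b1+/+ (log2 fold change 1.30, SE 0.25, adjusted p = 0.00138). Six3, which lies 55.0 kb from Six2 and acts in forebrain and eye, had a log2 fold change of 0.05 and did not pass. Six4 was higher (log2 fold change 0.42, adjusted p = 0.000431), with means of 244 ± 8.21 in the libraries labelled Cyp1b1-/- and 183 ± 11.8 in Cyp1b1+/+ (SD, n = 4 each).

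The Msx, Dlx, Prrx and Nkx transcripts were grouped by symbol as limb and mesenchyme homeobox transcripts, a name that does not describe each member. Of these 8, which include the non-coding Dlx1as, 6 were higher and none was lower at an adjusted p under 0.05. Among all genes 26.8% were higher and 26.9% lower. Nkx2-5, a factor of the developing heart, had 39, 45, 36 and 21 in the libraries labelled Cyp1b1-/-, against 1, 1, 1 and 3 in Cyp1b1+/+ (log2 fold change 3.88, SE 0.39, adjusted p = 1.6e-05, and 4.58 with a pseudocount of 0.1). Nkx2-5 may also have entered the table only through the libraries labelled Cyp1b1-/-, so its p-value is only a description. Msx1 had 184, 198, 173 and 189 in the libraries labelled Cyp1b1-/-, against 63, 80, 70 and 62 in Cyp1b1+/+ (log2 fold change 1.43, SE 0.10, adjusted p = 1.5e-06). Msx2 had 64, 73, 56 and 67 in the libraries labelled Cyp1b1-/-, against 31, 29, 31 and 30 in Cyp1b1+/+ (log2 fold change 1.07, SE 0.13). Msx1 and Msx2 are repressors that act downstream of BMP signals in face and limb. Prrx1, a factor of limb and face mesenchyme, had 11376, 11955, 11416 and 11968 in the libraries labelled Cyp1b1-/-, against 8804, 8330, 8291 and 8140 in Cyp1b1+/+ (log2 fold change 0.48, SE 0.04, adjusted p = 1.99e-06). Prrx2 was higher by 0.59 and Dlx1 by 0.27 on the log2 scale. Dlx2, 9.4 kb from Dlx1, did not pass (0.05), and neither did the overlapping antisense Dlx1as with 27, 17, 14 and 45 in the libraries labelled Cyp1b1-/- and 26, 42, 34 and 31 in Cyp1b1+/+. Dlx1as was lower only when replicate 4 labelled Cyp1b1-/- was left out (log2 fold change -0.78, adjusted p = 0.0384).

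All 5 T-box genes passed the test, 3 higher and 2 lower, beside 26.8% higher and 26.9% lower of all genes. Tbx2 (chr11:85832551-85841948), a repressor of the dorsal eye cup, had normalized values of 125, 134, 132 and 121 in the libraries labelled Cyp1b1-/-, against 11, 10, 11 and 20 in the Cyp1b1+/+ libraries (log2 fold change 3.25, SE 0.21, adjusted p = 7.29e-07). Tbx3 (chr5:119670669-119684724), a close relative of Tbx2 and also a repressor, had 110, 121, 125 and 80 in the libraries labelled Cyp1b1-/-, against 399, 412, 436 and 444 in Cyp1b1+/+ (log2 fold change -1.97, SE 0.13, adjusted p = 8.33e-07). The 2 related genes thus differed in opposite directions, each without overlap between the groups. Tbx15, a factor of skeleton and dermis, had 289, 495, 262 and 266 in the libraries labelled Cyp1b1-/-, against 95, 82, 94 and 78 in Cyp1b1+/+ (log2 fold change 1.85, SE 0.19). Replicate 2 was the highest of its label, and without it the log2 fold change of Tbx15 was 1.63 (adjusted p = 1.3e-08). Tbx20, a heart factor, had 3710, 3229, 3622 and 3627 in the libraries labelled Cyp1b1-/-, against 2953, 2833, 2776 and 2654 in Cyp1b1+/+ (log2 fold change 0.34, SE 0.05).

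Tbx18 had 65, 132, 56 and 65 in the libraries labelled Cyp1b1-/-, against 105, 115, 126 and 113 in Cyp1b1+/+. Tbx18 marks pericytes and the outer lining of the heart, and replicate 2 alone reached above the Cyp1b1+/+ values. Its log2 fold change was -0.61 (adjusted p = 0.0467) with all libraries and -0.88 (adjusted p = 1.91e-05) without replicate 2 labelled Cyp1b1-/-. The call was lost when any of the other 7 libraries was left out (adjusted p = 0.0647 to 0.123). The summed value of 4 pericyte and smooth muscle markers was 68802 in replicate 2. It was 42223 to 45541 in the other libraries of that label and 39560 to 47215 in Cyp1b1+/+. Acta2 and Tagln made up most of this sum. Pdgfrb was lower in the libraries labelled Cyp1b1-/- (301, 738, 343 and 361, against 725, 883, 808 and 857 in Cyp1b1+/+). Cnn1 was higher (278, 417, 210 and 214, against 149, 103, 91 and 115). The part of these markers in the Tbx18 value was not tested. Tbx18 shares 20.6% of its exon bases with the opposite-strand D030062O11Rik.

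Of the 18 forkhead genes 8 were higher, 5 were lower and 5 did not pass, beside 26.8% higher and 26.9% lower of all genes. Foxa2, a factor of endoderm and the floor plate, had 53, 68, 59 and 55 in the libraries labelled Cyp1b1-/-, against 11, 14, 7 and 9 in Cyp1b1+/+ (log2 fold change 2.44, SE 0.23, adjusted p = 9.26e-06). Foxd1, a factor of the temporal retina and of kidney stroma, had 31, 52, 24 and 36 in the libraries labelled Cyp1b1-/-, against 8, 6, 12 and 6 in Cyp1b1+/+ (log2 fold change 2.02, SE 0.31). The groups did not overlap for either gene, both at low levels.

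Foxf1 and Foxf2, factors of the mesenchyme around gut and lung, were higher by 0.89 and 0.92 on the log2 scale. Foxf1 had 224, 201, 189 and 205 in the libraries labelled Cyp1b1-/-, against 98, 97, 126 and 121 in Cyp1b1+/+. Foxc1, 175.2 kb from Foxf2 and a regulator of the front of the eye, did not pass at -0.09 (adjusted p = 0.581). The broadly expressed forkhead genes differed by less. Foxo3 was higher by 0.39 and Foxp1 by 0.13 on the log2 scale, while Foxo1, Foxk1 and Foxj3 had log2 fold changes of -0.30, -0.25 and -0.19 and were lower. Foxm1, which drives genes of cell division, averaged 2999 ± 124 in the libraries labelled Cyp1b1-/- and 3357 ± 137 in Cyp1b1+/+ (SD, n = 4 each, log2 fold change -0.16, adjusted p = 0.00655). Foxk2 (0.10, adjusted p = 0.0296) and Foxn2 (-0.12, adjusted p = 0.0395) passed narrowly. The call of Foxk2 was lost when any library other than replicate 2 labelled Cyp1b1-/- and replicate 1 of Cyp1b1+/+ was left out, and that of Foxn2 when any other than replicate 4 labelled Cyp1b1-/- was (adjusted p = 0.0543 to 0.0925).

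Of the 6 Sox transcripts, which include the non-coding Sox2ot, 4 were higher and 1 was lower, beside 26.8% and 26.9% of all genes. Sox2, a factor of neural stem cells and retinal progenitors, had 443, 474, 412 and 400 in the libraries labelled Cyp1b1-/-, against 227, 266, 279 and 294 in Cyp1b1+/+ (log2 fold change 0.70, SE 0.09, adjusted p = 7.4e-05). Sox2ot, the non-coding transcript that holds Sox2 within its span, had 35, 35, 40 and 40 in the libraries labelled Cyp1b1-/-, against 18, 17, 17 and 20 in Cyp1b1+/+ (log2 fold change 1.02, SE 0.16). Sox4, a factor of neuronal differentiation, had 1232, 1099, 1141 and 1059 in the libraries labelled Cyp1b1-/-, against 690, 667, 642 and 707 in Cyp1b1+/+ (log2 fold change 0.74, SE 0.05, adjusted p = 1.48e-06). The groups did not overlap for these 3 genes. Of the exon bases of Sox4, 54.6% are shared with Gm26735 on the opposite strand, which was also higher (log2 fold change 0.67), and without strand the reads of the pair cannot be told apart. Sox13 had 21, 21, 13 and 15 in the libraries labelled Cyp1b1-/-, against 4, 10, 6 and 6 in Cyp1b1+/+ (log2 fold change 1.33, SE 0.33). Sox12 was lower (log2 fold change -0.18, adjusted p = 0.0103), and Sox7 did not pass (-0.19, adjusted p = 0.157).

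Gata2 and Gata6, zinc-finger factors of blood, heart and vessel wall, were both higher. Gata6 had 85, 86, 95 and 80 in the libraries labelled Cyp1b1-/-, against 9, 7, 23 and 13 in Cyp1b1+/+ (log2 fold change 2.77, SE 0.30, adjusted p = 2.98e-05). Gata2 had 46, 43, 47 and 41 in the libraries labelled Cyp1b1-/-, against 18, 17, 19 and 31 in Cyp1b1+/+ (log2 fold change 1.06, SE 0.21, adjusted p = 0.00153). Both were free of overlap, although replicate 4 of Cyp1b1+/+ was well above its group for Gata2. The Zic genes are zinc-finger factors of the dorsal neural tube, cerebellum and eye. Of the 5, 3 were higher, beside 26.8% of all genes, and 2 did not pass. Zic4 had 308, 365, 323 and 339 in the libraries labelled Cyp1b1-/-, against 170, 191, 209 and 207 in Cyp1b1+/+ (log2 fold change 0.78, SE 0.08). Zic1, which overlaps Zic4 on the opposite strand of chromosome 9, was higher by 0.21 (adjusted p = 0.0088), and Zic2 and Zic5, 9.8 kb apart on chromosome 14, did not pass (0.11 and 0.06). Foxo4, on the X chromosome, did not pass (0.03, adjusted p = 0.73).

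**Figure D3:**
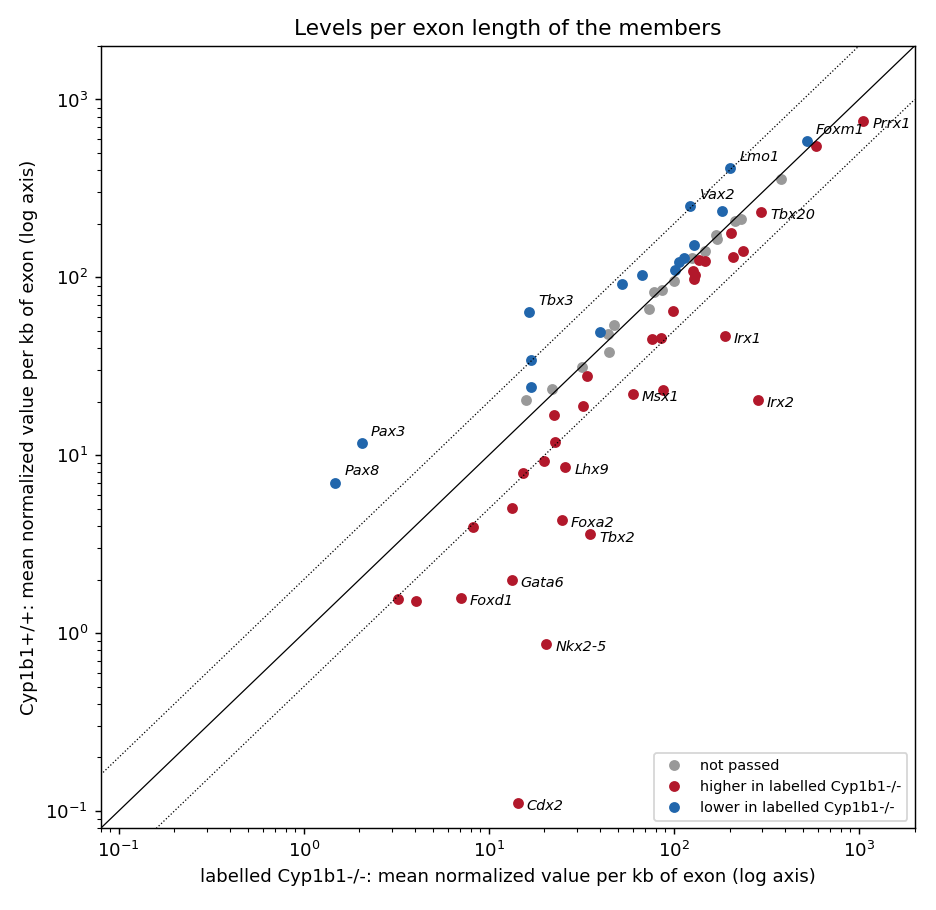
Mean normalized value per kb of exon of 68 of the 73 genes in the libraries labelled Cyp1b1-/- (horizontal, log axis) and in Cyp1b1+/+ (vertical, log axis), with the line of equal levels. Prrx1 lies at the top right with 1055 and 758, and Cdx2 lies far below the line with 14.3 and 0.111.

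To compare levels between genes, mean normalized values were divided by the exon length. Prrx1 had the highest level per kb of exon in both groups, at 1055 in the libraries labelled Cyp1b1-/- and 758 in Cyp1b1+/+. Foxk2 had 586 in the libraries labelled Cyp1b1-/- and 546 in Cyp1b1+/+, and Foxm1 had 521 in the libraries labelled Cyp1b1-/- and 583 in Cyp1b1+/+. The lowest level per kb was that of Pax8 in the libraries labelled Cyp1b1-/- (1.48) and that of Cdx2 in Cyp1b1+/+ (0.111). Irx2 had 285 per kb in the libraries labelled Cyp1b1-/-, close to Tbx20 at 296, and 20.4 in Cyp1b1+/+. The median normalized value of the 73 genes over all libraries was 307, beside 501 for all genes.

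Replicate 2 labelled Cyp1b1-/-, in which collagen transcripts were high, exceeded the average of its 3 companion libraries by more than 1.5-fold for Foxd1, Pbx3, Tbx15 and Tbx18. These are 5.56% of the 72 genes with a group mean of at least 10, beside 5.77% of all such genes. It was more than 1.5-fold below them for Dlx1as. Pbx3 had 416, 629, 393 and 355 in the libraries labelled Cyp1b1-/-, against 415, 393, 393 and 417 in Cyp1b1+/+, so the other 3 libraries lay near the Cyp1b1+/+ level. Prrx1, Msx1 and the Irx genes did not depart in replicate 2, as the plot of each library's departure from its group shows.

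**Figure D4:**
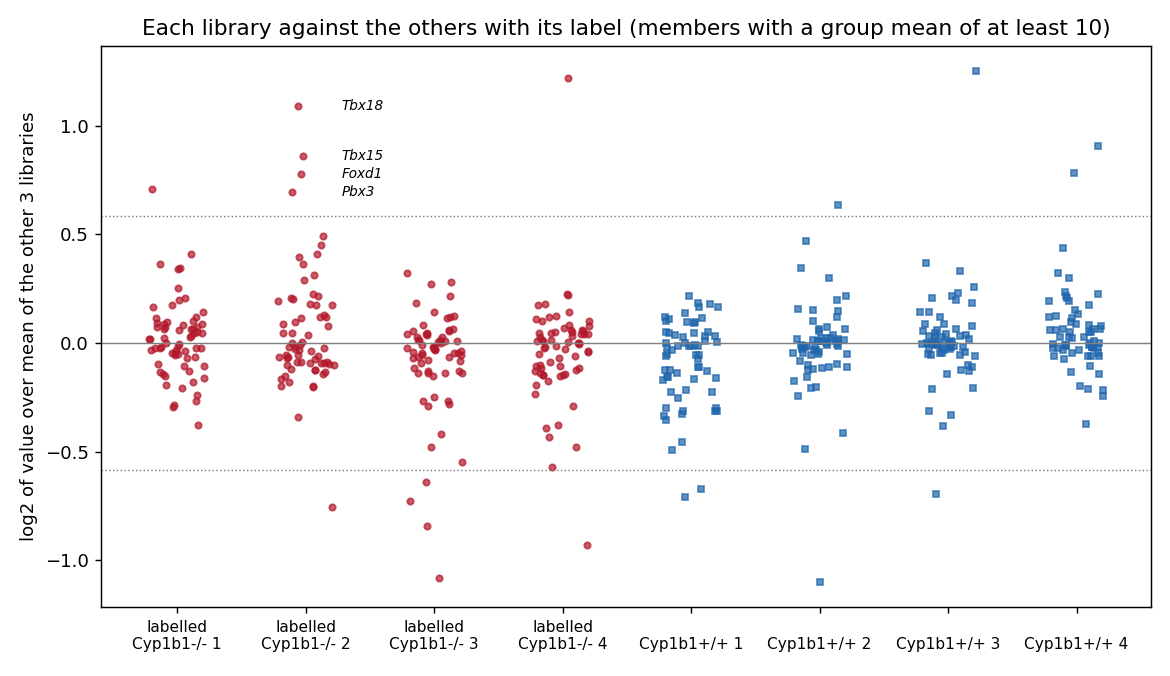
Value of each library over the mean of the other 3 libraries of its group (log2, vertical axis), for those of 68 genes with a group mean of at least 10, with the 4 libraries labelled Cyp1b1-/- on the left and the 4 Cyp1b1+/+ libraries on the right. Replicate 2 labelled Cyp1b1-/- holds 4 points above the 1.5-fold line.

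For a gene whose groups did not overlap, the exact two-sided permutation test of its 4 against 4 libraries gave p = 0.0286, the smallest p this design allows, so this test could not rank such genes.

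Other homeobox genes outside these families were counted as well. Of 85 listed genes 31 were measured, of which 14 were higher and 7 lower (median log2 fold change 0.12), beside 26.8% higher and 26.9% lower of all genes. Isl1, a LIM-homeobox factor of retinal ganglion cells and heart, had 141, 112, 149 and 125 in the libraries labelled Cyp1b1-/-, against 620, 711, 679 and 676 in Cyp1b1+/+ (log2 fold change -2.35, SE 0.09, adjusted p = 2.3e-08). Shox2 had 187, 285, 229 and 268 in the libraries labelled Cyp1b1-/-, against 980, 993, 970 and 1016 in Cyp1b1+/+ (log2 fold change -2.04, SE 0.11). Both genes are known from the pacemaker region of the heart, and their groups did not overlap. Zfhx4 and Pou6f1 were higher by 0.57 and 0.85 on the log2 scale.

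Among mesenchyme and neural crest factors of other families, 25 of 38 were measured, with 9 higher and 7 lower (median log2 fold change 0.10), beside 26.8% higher and 26.9% lower of all genes. Nr2f2, a nuclear receptor of veins and of the dorsal optic vesicle, had 1763, 1858, 1794 and 1864 in the libraries labelled Cyp1b1-/-, against 858, 899, 921 and 899 in Cyp1b1+/+ (log2 fold change 1.02, SE 0.04, adjusted p = 1.15e-08). Tfap2b, a neural crest factor, had 120, 134, 132 and 96 in the libraries labelled Cyp1b1-/-, against 276, 262, 244 and 267 in Cyp1b1+/+ (log2 fold change -1.13, SE 0.11). Runx1 and Twist1 were higher by 0.40 and 0.55 on the log2 scale. The count of lower genes in this list was 4 without replicate 1 labelled Cyp1b1-/- and 4 without replicate 3 of Cyp1b1+/+.

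Cofactors that bind these proteins were measured for 19 of 22 listed genes, with 9 higher and 3 lower (median log2 fold change 0.19), beside the same shares of all genes. Eya4 and Eya1, coactivators of Six2 and its relatives, were both higher, while Eya3 did not pass (log2 fold change 0.05, adjusted p = 0.338). Eya4 had 598, 605, 577 and 561 in the libraries labelled Cyp1b1-/-, against 295, 269, 261 and 269 in Cyp1b1+/+ (log2 fold change 1.10, SE 0.05, adjusted p = 1.18e-07). Eya1 had 831, 799, 841 and 783 in the libraries labelled Cyp1b1-/-, against 512, 522, 489 and 506 in Cyp1b1+/+ (log2 fold change 0.68). Aes, a short relative of the Groucho corepressors, was higher by 0.88 (adjusted p = 9.04e-08), and Tle1, a Groucho corepressor, was lower with a log2 fold change of -0.42 (adjusted p = 2.67e-05). Eya4, Eya1, Aes and Tle1 had no overlap between the groups.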

How the data were processed

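RNA of 4 libraries labelled Cyp1b1-/- and 4 Cyp1b1+/+ libraries was sequenced from poly-A libraries and, per the submitters' processing notes, processed with bcl2fastq 2.20, STAR 2.5.3a, RSEM and edgeR 3.28.0 on GRCm38.p6. The deposited score, called the normalized value, is a gene's read count after the authors removed genes of low abundance, scaled it by TMM to one library size and rounded it to a whole number. The authors' own comparison columns (log2 fold change, average log2 abundance, likelihood ratio, p-value and FDR) and a list of selected genes were not used. Totals were 19491502 to 20134745 in the libraries labelled Cyp1b1-/- and 19261729 to 19370850 in Cyp1b1+/+. These totals follow from the scaling and are not sequencing depths. The study states a mean read number per genotype, but the files hold no raw counts per library. The labels name a mirVana kit for the RNA and the methods an RNeasy kit.

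All 13575 genes were fitted with limma 3.58.1 in R 4.3.3 on log2(value + 1) of all 8 libraries, without covariates and with a mean-variance trend. Adjustment was by Benjamini-Hochberg over all genes, at a threshold of 0.05. Log2 fold changes are on the log2(value + 1) scale, which understates changes of low genes. The code was tested on simulated data. The members, gene lists and tests were chosen with earlier results of these data known. Named genes are members changed by more than 2-fold without overlap, up to 4 members of each family with the smallest p and up to 3 with the highest mean, members with 1 library over 4-fold away from its group, and up to 4 genes with the smallest p in each list. Others were named after their values were seen. Of the 73 members, 5 enter the counts but are not reported singly here. Positions and exon lengths come from GENCODE M21 (GRCm38), which matched 13560 of the 13575 genes and all 73 members. Alternatives were pseudocounts of 0.1 and 0.5, median-ratio scaling, equal totals, minimum means of 10 and 50, no trend, a replicate block and leaving out each library. Plots were drawn with matplotlib 3.10.9, and other steps used scipy 1.17.1, pandas 2.3.3 and numpy 2.4.6 under Python 3.11.15.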

Additional observations from a re-analysis of the deposited data

Results flagged for a closer look

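In 8 of 136 sets of 4 libraries (68 genes in 2 groups), 1 library stood far from the other 3 by Dixon's criterion, which chance meets in about 1 of 20 sets. Of the 8, 5 were in replicate 4 of Cyp1b1+/+. In that library Cdx2 was at 1 (0 in the other 3), Nkx2-5 at 3 (1 in the other 3), Tbx2 at 20 (10 to 11), Gata2 at 31 (17 to 19) and Otx1 at 580 (548 to 553), each the highest of its group. All 5 genes were higher in the libraries labelled Cyp1b1-/-. For Cdx2 and Nkx2-5 the other 3 values were tied, so any different value would have met the criterion.

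Replicate 2 labelled Cyp1b1-/- was apart for Tbx15 at 495 (262 to 289 in the other 3) and for Tbx18 at 132 (56 to 65). In Cyp1b1+/+, replicate 2 was apart for Meis2 at 1321 (1212 to 1221).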

How the results depend on the processing

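Of the 73 genes, 67 kept their call under all 16 alternatives (37 higher, 15 lower and 15 not passing), and no gene changed direction with a call. The other 6 were Foxk2, Foxn2, Tbx18, Hoxb2, Meis1 and Dlx1as. With a minimum mean of 50, which leaves out low genes by construction, 6 members were higher by more than 2-fold, 0 Gata, 1 Hox and Cdx, 2 Sox and 5 forkhead transcripts were higher. Without the mean-variance trend 1 T-box gene was lower, since Tbx18 no longer passed (adjusted p = 0.0768). Leaving out each library in turn gave 37 to 39 higher and 15 to 17 lower members, 15 to 18 higher and 5 to 6 lower by more than 2-fold, 1 to 2 lower T-box genes, 0 to 1 lower limb and mesenchyme homeobox transcripts and 4 to 9 lower mesenchyme and neural crest factors. Same-numbered libraries did not deviate together (correlations of -0.0116, 0.00333, -0.00155 and -0.00868), so the numbers do not pair them. With the replicate block 38 members were higher and 17 lower, as Hoxb2 no longer passed (adjusted p = 0.0525). Equal totals moved the median of all genes by -0.026 on the log2 scale. Without raw counts per library in the files, the counting error of low values could not be computed.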

Other observations

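The opposite-strand transcripts that the symbol rule set aside were measured beside their neighbours. Vax2os had normalized values of 5, 15, 8 and 10 in the libraries labelled Cyp1b1-/-, against 45, 61, 63 and 73 in Cyp1b1+/+ (log2 fold change -2.62, adjusted p = 4.38e-05), beside a log2 fold change of -1.02 for Vax2. Six3os1 had 659, 699, 806 and 717 in the libraries labelled Cyp1b1-/-, against 569, 595, 668 and 677 in Cyp1b1+/+ (log2 fold change 0.20, adjusted p = 0.0444), beside 0.05 for Six3. Foxd2os had 37, 28, 32 and 40 in the libraries labelled Cyp1b1-/-, against 52, 58, 60 and 68 in Cyp1b1+/+ (log2 fold change -0.79, adjusted p = 0.00168). Among the other homeobox genes, Onecut2, named after its values were seen, had 101, 79, 79 and 100 in the libraries labelled Cyp1b1-/-, against 16, 11, 8 and 13 in Cyp1b1+/+ (log2 fold change 2.83, adjusted p = 2.5e-06).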
